A study of Mus musculus with 10 samples.

Results

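The mitochondrial carriers of the Slc25 family were examined in livers of male mice that lacked both macroH2A genes and in wild-type livers. Members were all probe sets whose platform annotation gave exactly 1 gene symbol, and that symbol began with Slc25a. This rule gave 46 genes with 1 probe set each, out of 22180 genes that had at least 1 unshared probe set. The rule used names and no measured value, but it was chosen with earlier results of these data known.

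Mitochondrial carriers are small proteins of the inner mitochondrial membrane that exchange metabolites between the cytosol and the matrix. They link pathways that are split between the compartments, such as glucose production, urea synthesis, fatty acid oxidation and the export of ATP. In fasted liver, malate, citrate, aspartate, ornithine, acylcarnitine and adenine nucleotides all cross the inner membrane through members of this family.

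The study had 10 arrays, 5 of wild-type and 5 of macroH2A1 macroH2A2 double knockout livers, and the values were log2 expression levels. All mice were males of strain 129/S6 (taconic), 2 months old, fed a low-fat chow and fasted overnight for about 16 h before they were killed in the morning. The labels name no other allele and no agent, and they say neither how the knockout was made nor whether each array stood for a separate mouse. If any arrays shared a mouse, the p-values measure only the spread between these samples.

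The Macroh2a1 probe set read 9.51 to 9.66 in wild-type and 9.02 to 9.18 in double knockout arrays, while Macroh2a2 read 5.86 to 6.55 and 5.99 to 6.44, with overlap and with a mean level of 6.22 below the background guide given next, so it does not check the genotype. The labels do not say which exons were removed, and a probe set outside them would not check the genotype. Olfactory receptor probe sets, whose genes serve smell, had a 95th percentile of 6.54, which served as a guide to background. The mean of 10 hepatocyte markers lay between 13.40 and 13.49 on all arrays. The mean of 11 pancreatic acinar markers spread from 5.94 to 10.45 in wild-type and from 6.03 to 8.59 in double knockout arrays. The mean of 12 macrophage and Kupffer cell markers was 8.81 to 9.15 and 9.06 to 9.39, with 12 of 12 higher in double knockout livers. The mean of 10 erythroid and haemoglobin probe sets was 6.99 to 7.63 and 7.57 to 7.74. Of these, 5 were shared haemoglobin probe sets, and of the 5 erythroid genes 2 had higher and 3 lower means (median log2 difference -0.041). In bulk liver, fewer cells of a type and less RNA per cell cannot be told apart.

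Log2 differences of the 46 carriers, double knockout minus wild type, ran from -0.57 to 0.43. Double knockout and wild-type livers were compared in limma with Benjamini-Hochberg adjustment over 25335 probe sets, and the threshold for a call was an adjusted p of 0.05. The dicarboxylate carrier Slc25a10 and the ATP-Mg/phosphate carrier Slc25a23 were called lower, at 80.5% and 78.6% of their wild-type levels, and 0 carriers were called higher. These 2 calls were 4.35% of the carriers, where 0.884% of all tested probe sets were called, 0.553% lower and 0.332% higher. At an adjusted p under 0.1 the count was 4 carriers, with Slc25a30 and Slc25a16 added, against 2.31% of all probe sets. The groups did not overlap for 5 carriers (10.9%), namely Slc25a10, Slc25a23 and Slc25a16, which were lower, and Slc25a30 and Slc25a27, which were higher. Over all probe sets the groups did not overlap for 3.90%.

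Means were lower in double knockout livers for 30 of 46 carriers (65.2%) and for 51.5% of all probe sets. The median log2 difference was -0.038 over the carriers and -0.003 over all probe sets. An unadjusted p under 0.05 was reached by 13 carriers (28.3%) and by 15.1% of all probe sets. Mean levels lay above the background guide for 39 carriers. The 7 below it were Slc25a2, Slc25a14, Slc25a31, Slc25a41, Slc25a43, Slc25a53 and Slc25a54. No filter on level was applied, so all 46 carriers were tested.

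**Figure D1:**
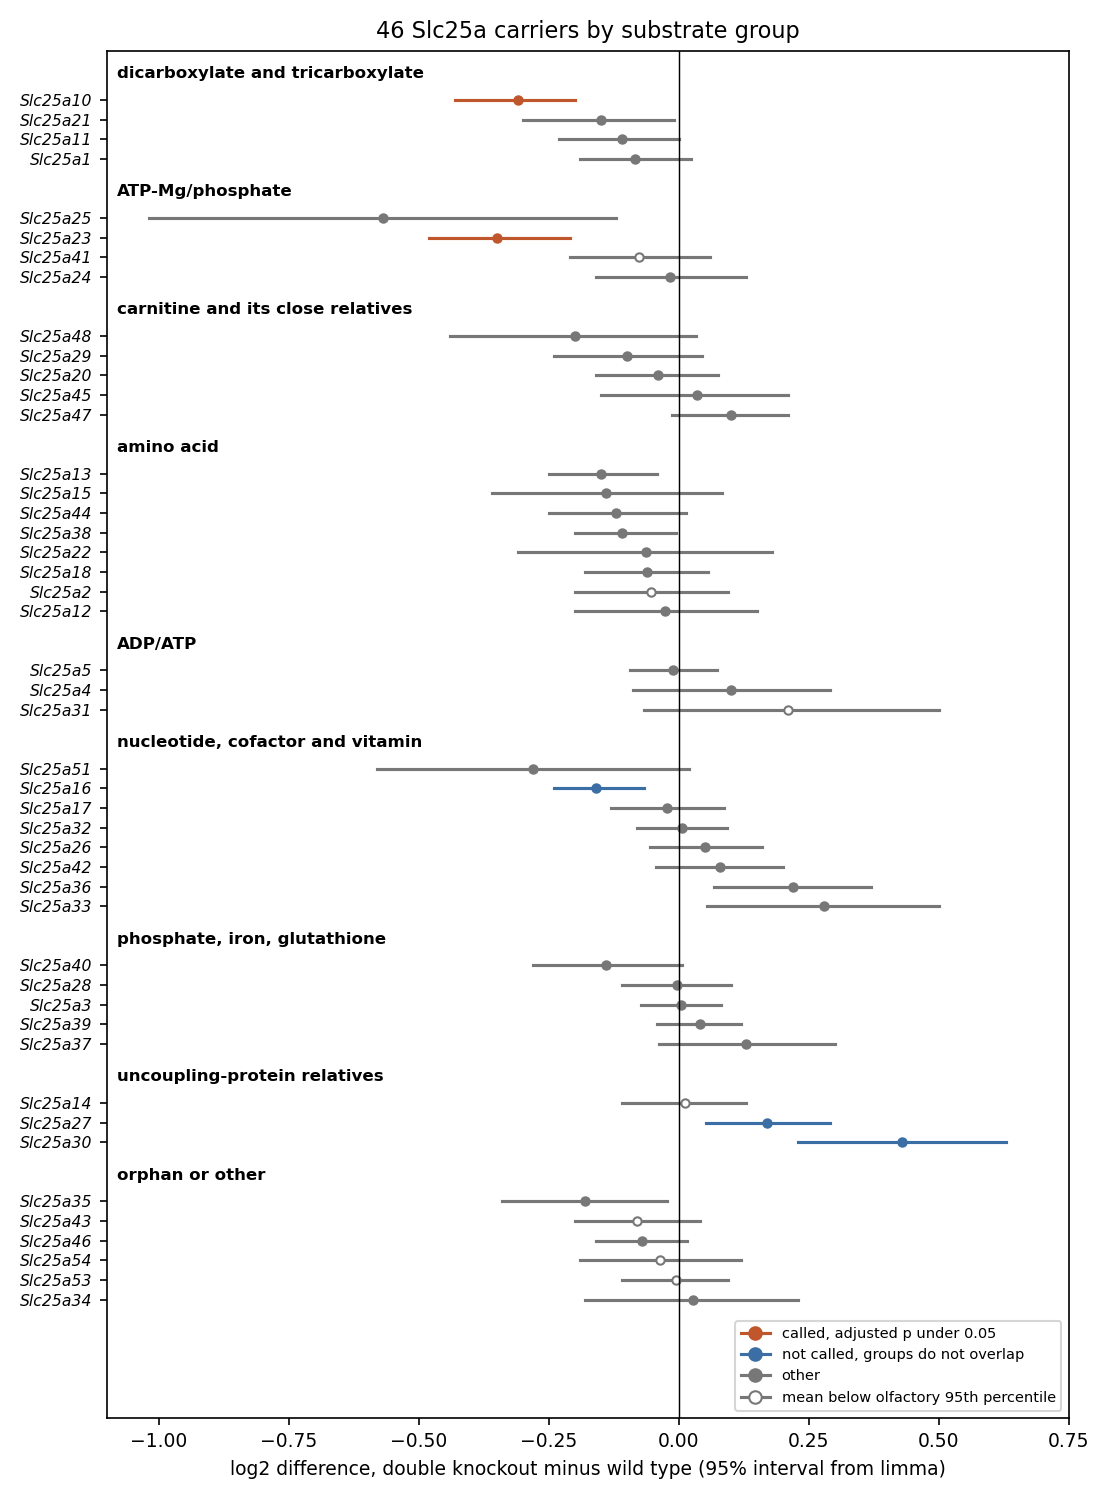
Log2 difference (double knockout minus wild type, n = 5 each) of the 46 Slc25a carriers on the horizontal axis, grouped by substrate, with the 95% interval from limma as a line; open points mark carriers whose mean lay below the background guide. Slc25a10 and Slc25a23 (orange) were called, and the 3 blue carriers, Slc25a16, Slc25a27 and Slc25a30, were not called although their groups did not overlap.

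Carriers of dicarboxylates and tricarboxylates move the carbon of the citric acid cycle across the membrane, and all 4 had lower means in double knockout livers (median log2 difference -0.13). Slc25a10 exchanges malate or succinate for phosphate and so feeds malate out of the matrix for glucose production. Its levels in wild-type replicates 1 to 5 were 10.32, 10.47, 10.30, 10.42 and 10.25. In double knockout replicates 1 to 5 they were 10.14, 10.04, 10.03, 10.02 and 9.96. Each double knockout array lay below each wild-type array. The means were 10.35 ± 0.09 and 10.04 ± 0.06 (SD, n = 5 each), with a log2 difference of -0.31 (adjusted p = 0.0218 in limma, SE 0.052).

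Slc25a21, the oxodicarboxylate carrier of lysine and tryptophan breakdown, averaged 9.62 ± 0.10 (SD, n = 5) in wild-type arrays and 9.47 ± 0.12 (SD, n = 5) without the macroH2A genes. At -0.15 it missed the threshold (limma adjusted p = 0.297), and the highest double knockout array, at 9.66, lay within the wild-type range of 9.50 to 9.73. Slc25a11, the oxoglutarate carrier of the malate-aspartate shuttle, had a difference of -0.11 (SE 0.052, limma adjusted p = 0.33). Slc25a1, the citrate carrier that supplies cytosolic acetyl-CoA, had -0.085, with a 95% interval of -0.19 to 0.024. For these 3 carriers the groups overlapped.

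ATP-Mg/phosphate carriers set the adenine nucleotide content of the matrix, most of them under the control of calcium, and all 4 had lower means. Slc25a23 read 11.36, 11.32, 11.26, 11.43 and 11.14 in wild-type replicates 1 to 5. In double knockout replicates 1 to 5 it read 11.01, 11.06, 10.86, 10.99 and 10.86. The groups were again separate, with wild-type replicate 5 the lowest of its group. The means were 11.30 ± 0.11 and 10.95 ± 0.09 (SD, n = 5 each), with a log2 difference of -0.35 (adjusted p = 0.0274 in limma, SE 0.062).

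Slc25a25, another calcium-regulated member of this group, had the largest difference of all 46 carriers and was not called. It read 9.76, 10.91, 10.81, 10.91 and 10.68 in wild-type replicates 1 to 5. In double knockout replicates 1 to 5 it read 10.36, 9.98, 10.17, 10.09 and 9.63. Wild-type replicate 1 lay below 4 of the 5 double knockout arrays, while the other 4 wild-type arrays lay above all of them. The means were 10.62 ± 0.49 and 10.05 ± 0.27 (SD, n = 5 each), with a difference of -0.57 (SE 0.21, limma adjusted p = 0.217). Without wild-type replicate 1 it was -0.79 (SE 0.12, limma adjusted p = 0.0198).

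The other members of the group, Slc25a24 and Slc25a41, had differences of -0.017 and -0.077. Slc25a41 lies next to Slc25a23 on chromosome 17 with 0 protein-coding genes between them in RefSeq, and its mean level of 5.81 was below the background guide.

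**Figure D2:**
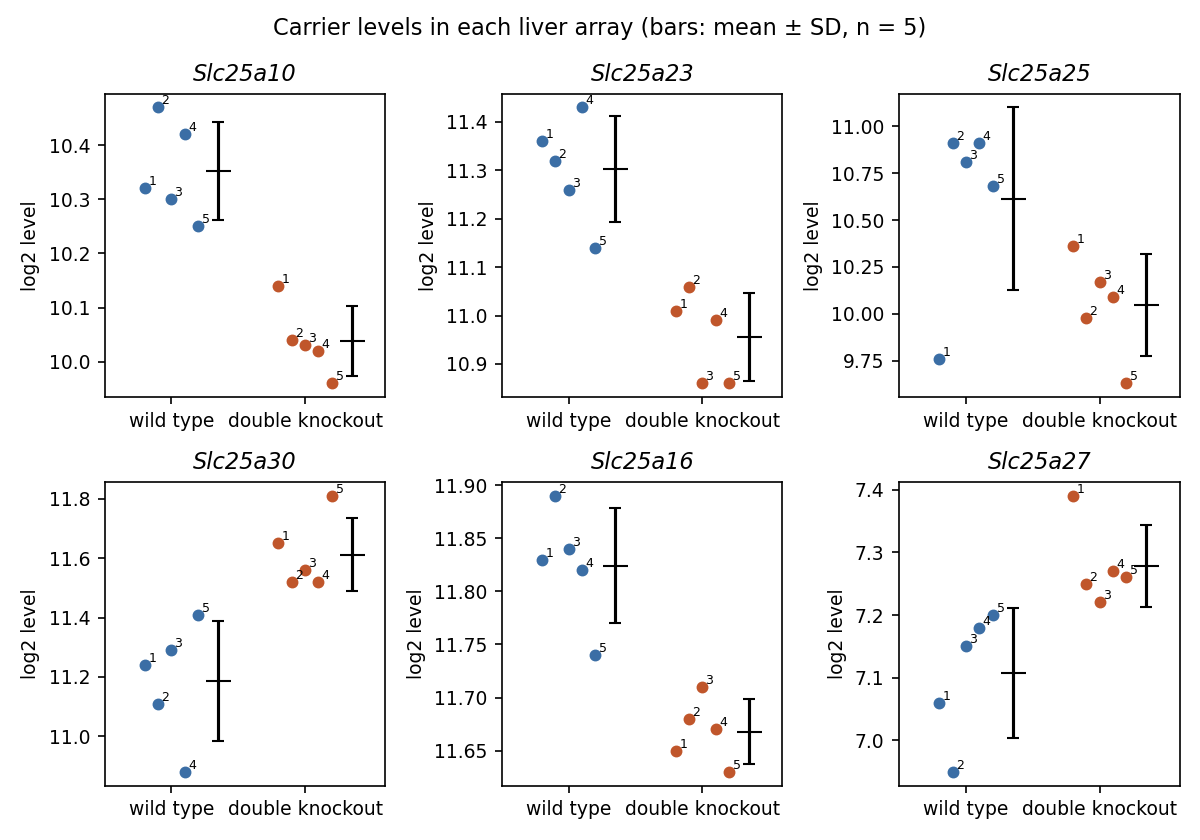
Log2 level (vertical axis, a separate scale in each panel that does not start at 0) of 6 carriers in each array, labelled by replicate number, with the group mean ± SD (n = 5) beside the points. The groups are separate for Slc25a10, Slc25a23, Slc25a30, Slc25a16 and Slc25a27, whereas wild-type replicate 1 lies among the double knockout arrays for Slc25a25.

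Among the relatives of the uncoupling proteins 3 of 3 means lay above wild type, with a median difference of 0.17. Slc25a30, first described in kidney, read 11.24, 11.11, 11.29, 10.88 and 11.41 in wild-type replicates 1 to 5. In double knockout replicates 1 to 5 it read 11.65, 11.52, 11.56, 11.52 and 11.81. Each double knockout array lay above each wild-type array. The means were 11.18 ± 0.20 and 11.61 ± 0.12 (SD, n = 5 each), with a difference of 0.43 (SE 0.093), and the limma adjusted p of 0.0557 narrowly missed the threshold. The mean of 3 kidney markers lay between 5.88 and 6.05 on all arrays, below the background guide, which 1 of the 3 exceeded.

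Slc25a27, known from neurons, had 6.95 to 7.20 in wild-type and 7.22 to 7.39 in double knockout arrays. Its groups were separate, yet 0.17 (SE 0.055) did not reach the threshold (limma adjusted p = 0.165). Slc25a14, at a mean level of 6.05, had 0.011.

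Sequences upstream of the transcription starts of the carriers with the largest differences are shown from RefSeq (GRCm38.p6), 250 bases each, 5′ to 3′, so that the regions in front of them can be compared. Capitals mark CCAAT (the CCAAT box) and TGACG (the half-site of the cAMP response element, CRE), each searched on both strands, where the full element TGACGTCA holds TGACG on each strand. RefSeq gave 46 such regions for 36 of the 46 carriers. Slc25a23 had 2 starts, of which the outer is shown, and Slc25a25 had 3, of which the one with a full element is shown.
Slc25a10, chr11:120491587-120491836, plus strand: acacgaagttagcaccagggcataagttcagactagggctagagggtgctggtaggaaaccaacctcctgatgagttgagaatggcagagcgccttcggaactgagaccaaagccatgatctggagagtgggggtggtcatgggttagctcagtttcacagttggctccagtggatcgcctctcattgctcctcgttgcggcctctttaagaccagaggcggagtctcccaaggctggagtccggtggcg
Slc25a23, chr17:57059864-57060113, minus strand: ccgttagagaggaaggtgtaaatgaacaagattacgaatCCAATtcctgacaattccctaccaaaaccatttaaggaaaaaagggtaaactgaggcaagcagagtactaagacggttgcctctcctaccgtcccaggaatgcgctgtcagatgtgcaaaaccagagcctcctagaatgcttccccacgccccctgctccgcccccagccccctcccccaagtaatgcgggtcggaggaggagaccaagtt
Slc25a30, chr14:75787038-75787287, minus strand: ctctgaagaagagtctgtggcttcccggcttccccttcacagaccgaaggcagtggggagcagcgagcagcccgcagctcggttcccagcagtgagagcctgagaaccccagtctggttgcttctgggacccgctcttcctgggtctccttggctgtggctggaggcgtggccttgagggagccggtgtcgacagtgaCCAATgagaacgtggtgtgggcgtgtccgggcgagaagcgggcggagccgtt
Slc25a25, chr2:32424067-32424316, minus strand: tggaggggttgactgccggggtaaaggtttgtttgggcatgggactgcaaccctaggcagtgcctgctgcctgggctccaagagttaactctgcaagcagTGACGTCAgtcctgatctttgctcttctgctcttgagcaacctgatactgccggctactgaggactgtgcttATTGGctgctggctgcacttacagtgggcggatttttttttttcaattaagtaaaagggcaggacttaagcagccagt

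CCAAT occurred in 21 of the 46 carrier regions, against 33.8% of 32851 regions of the same length over all genes. TGACG was in 11 of 46 carrier regions and 17.8% of all regions, and TGACGTCA in 2 of 46 and 1.55%. The region of Slc25a10 held neither CCAAT nor TGACG, while those of Slc25a23 and Slc25a30 each held 1 CCAAT. These matches describe letters only, since binding was not measured.

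Carriers of acylcarnitine and their close relatives were 0 called of 5, with 0 at an unadjusted p under 0.05 in limma. Slc25a20, which brings acylcarnitines in for oxidation, read 11.30 to 11.45 in wild-type and 11.20 to 11.45 in double knockout arrays. Its difference was -0.041 with a 95% interval of -0.16 to 0.076. Slc25a47, a carrier found mainly in liver, had 13.35 ± 0.09 and 13.45 ± 0.07 (SD, n = 5 each), which differ by 0.10 (limma adjusted p = 0.399). Slc25a48 had -0.20 (SE 0.11, limma adjusted p = 0.412). Its highest array was wild-type replicate 4, at 8.87, and the other 4 wild-type arrays lay between 8.20 and 8.43, against 8.04 to 8.36 in double knockout arrays. Slc25a29, which carries basic amino acids, and Slc25a45 lay between -0.10 and 0.034.

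Slc25a48 lies on chromosome 13 with Macroh2a1, with 3 protein-coding genes between them in RefSeq. All 3 had lower means, by log2 differences of -0.17 to -0.036, and 0 were called in limma (1 at an unadjusted p under 0.05). Slc25a16, below, lies on chromosome 10 with Macroh2a2, and of the 16 protein-coding genes between them 14 had higher means, with a range of -0.039 to 0.15 and 0 called (2 at an unadjusted p under 0.05).

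Amino acid carriers had lower means in 8 of 8 cases, with a median difference of -0.084, but 0 were called in limma and 2 had an unadjusted p under 0.05. Slc25a13, the liver aspartate/glutamate carrier of the malate-aspartate shuttle and the urea cycle, read 12.02, 12.08, 12.04, 11.95 and 11.87 in wild-type replicates 1 to 5. In double knockout replicates 1 to 5 it read 11.84, 11.79, 11.87, 11.84 and 11.89. Only wild-type replicate 5 fell within the double knockout range. The difference was -0.15 (SE 0.047, limma adjusted p = 0.168).

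Slc25a38, which imports glycine for haem synthesis, had 9.05 ± 0.07 and 8.95 ± 0.06 (SD, n = 5 each), a difference of -0.11 (limma adjusted p = 0.299). Slc25a12, the other aspartate/glutamate carrier, had -0.026 with a 95% interval of -0.20 to 0.15. The ornithine carrier Slc25a15, needed for the urea cycle, had -0.14 (SE 0.10), and the glutamate carrier Slc25a22 had -0.064 (SE 0.11). For both, wild-type replicate 1 and double knockout replicate 2 were the lowest of their groups, at 11.73 and 11.48 for Slc25a15 and 11.49 and 11.28 for Slc25a22. The remaining 3 members, Slc25a2, Slc25a18 and the branched-chain amino acid carrier Slc25a44, lay between -0.12 and -0.054.

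Among the ADP/ATP carriers, which export the ATP made in the matrix, 0 of 3 were called, with 0 at an unadjusted p under 0.05 in limma. Slc25a5 read 12.99 to 13.11 in wild-type and 13.00 to 13.08 in double knockout arrays, and its difference of -0.011 had a 95% interval of -0.094 to 0.073. Slc25a4, best known from heart and muscle, had 0.10 with an interval of -0.088 to 0.29. Slc25a31, known from testis, was at a mean level of 5.92, below the background guide, and had 0.21 (SE 0.13, limma adjusted p = 0.48). The striated muscle markers had means of 6.01 to 6.31 in wild-type and 6.10 to 6.16 in double knockout arrays.

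Carriers of nucleotides, cofactors and vitamins went in both directions, with 5 higher and 3 lower means among the 8 measured and 0 called in limma (3 at an unadjusted p under 0.05). Slc25a16, linked to coenzyme A transport, read 11.83, 11.89, 11.84, 11.82 and 11.74 in wild-type replicates 1 to 5. In double knockout replicates 1 to 5 it read 11.65, 11.68, 11.71, 11.67 and 11.63. The groups did not overlap, but the difference was small, at -0.16 (SE 0.04, limma adjusted p = 0.0975). Slc25a42, which imports coenzyme A, had 0.079 (SE 0.056).

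Slc25a51, which brings NAD into the matrix, had 9.48 ± 0.31 and 9.20 ± 0.19 (SD, n = 5 each), a difference of -0.28 (limma adjusted p = 0.365). Its 5 wild-type arrays spread from 9.06 in replicate 1 to 9.85 in replicate 4 and overlapped the double knockout range of 8.91 to 9.44. The pyrimidine nucleotide carrier Slc25a36 had 0.22 (SE 0.069, limma adjusted p = 0.164), and wild-type replicate 4, at 7.69, was the array that overlapped the double knockout range of 7.54 to 7.75.

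The second pyrimidine nucleotide carrier, Slc25a33, was singled out after its values were seen. It read 10.55, 10.02, 10.08, 10.25 and 9.93 in wild-type replicates 1 to 5 and 10.30 to 10.55 in double knockout arrays. Wild-type replicate 1 was the highest of its own group and lay just above all double knockout arrays. It stood 0.3868 above the wild-type mean, against 0.3802 for double knockout replicate 2, the highest of that group. The other wild-type arrays lay below all double knockout arrays. The difference was 0.28 (SE 0.10, limma adjusted p = 0.222), and without wild-type replicate 1 it was 0.37 (SE 0.071, limma adjusted p = 0.0432). The other 3 members, Slc25a17, Slc25a26 and Slc25a32, had adjusted p of at least 0.691 in limma.

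Of the 5 carriers of phosphate, iron and glutathione, 0 were called in limma, with 0 at an unadjusted p under 0.05. Slc25a3, which supplies the phosphate for ATP synthesis, read 11.53 to 11.60 and 11.55 to 11.61, and its difference of 0.0045 had a 95% interval of -0.073 to 0.082. Slc25a37, the iron importer mitoferrin 1 known from red cell precursors, had 0.13 (SE 0.078, limma adjusted p = 0.469). Slc25a40 had -0.14 (SE 0.065), and Slc25a28 and Slc25a39 lay between -0.0038 and 0.04. The erythroid and haemoglobin mean was higher in double knockout arrays, at 7.65 against 7.29, although 3 of its 5 erythroid genes had lower means. A fit with this mean as covariate cannot separate it from the group, so its part in the value of Slc25a37 was not tested.

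Of 6 orphan or other carriers, 5 had lower means and 0 were called in limma (1 at an unadjusted p under 0.05). Slc25a35 had -0.18 (SE 0.073, limma adjusted p = 0.264), while a probe set annotated to both Slc25a35 and Rangrf, outside the rule and with a mean level of 6.30 below the background guide, had 0.0029. Slc25a46, a protein of the outer membrane, had -0.071 (SE 0.04). The other 4 lay between -0.08 and 0.027.

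Carriers differed in how far they spread within a group. The SD over the wild-type arrays had a median of 0.10 for the carriers and 0.09 for all probe sets, and the widest were Slc25a25 (0.49), Slc25a51 (0.31) and Slc25a48 (0.26). Among the 39 carriers above the background guide, double knockout replicate 2 was the lowest of its group for 19, and double knockout replicate 1 the highest for 17. In the wild type, replicate 5 was lowest for 15 and replicate 4 highest for 13. These 4 arrays also carried the strongest pancreatic acinar signal. The marker averages reached 8.38 (double knockout 1), 8.59 (double knockout 2), 9.4 (wild type 4) and 10.45 (wild type 5). No other array exceeded 6.64. Whether the pancreatic signal bears on these extremes was not tested. Wild-type replicate 1 was lowest for 10, among them Slc25a25, Slc25a51, Slc25a15 and Slc25a22. The median difference over the carriers ranged from -0.058 without double knockout replicate 1 to -0.0086 without double knockout replicate 2.

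**Figure D3:**
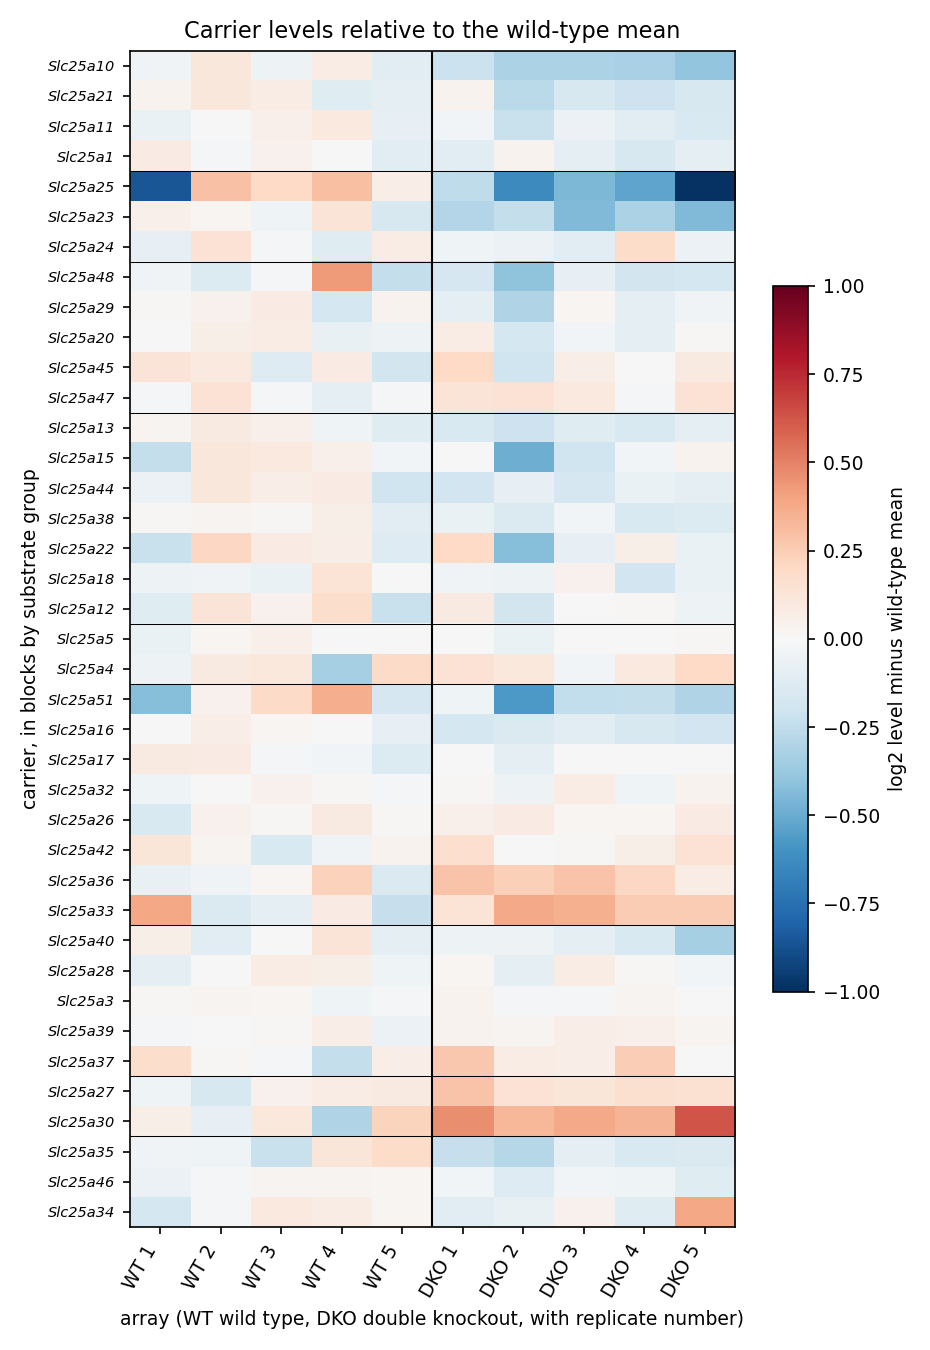
Log2 level minus the wild-type mean (colour) for the 39 carriers above the background guide (vertical axis, in blocks by substrate group) on each array (horizontal axis). Slc25a10 and Slc25a23 are below the wild-type mean on all 5 double knockout arrays and Slc25a30 above it, while Slc25a25 is also low on wild-type replicate 1.

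The calls depended on single arrays. Slc25a10 stayed called in 7 of 10 fits without an array, with limma adjusted p from 0.0196 to 0.063 and differences from -0.34 to -0.28, and Slc25a23 in 5 of 10, with 0.0163 to 0.0775 and -0.39 to -0.32. Neither was called without wild-type replicate 2 or double knockout replicate 4 or 5, and Slc25a23 also not without wild-type replicate 4 or double knockout replicate 3. Slc25a30 was called in 1 of 10, without wild-type replicate 5 (adjusted p = 0.0375 in limma).

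**Figure D4:**
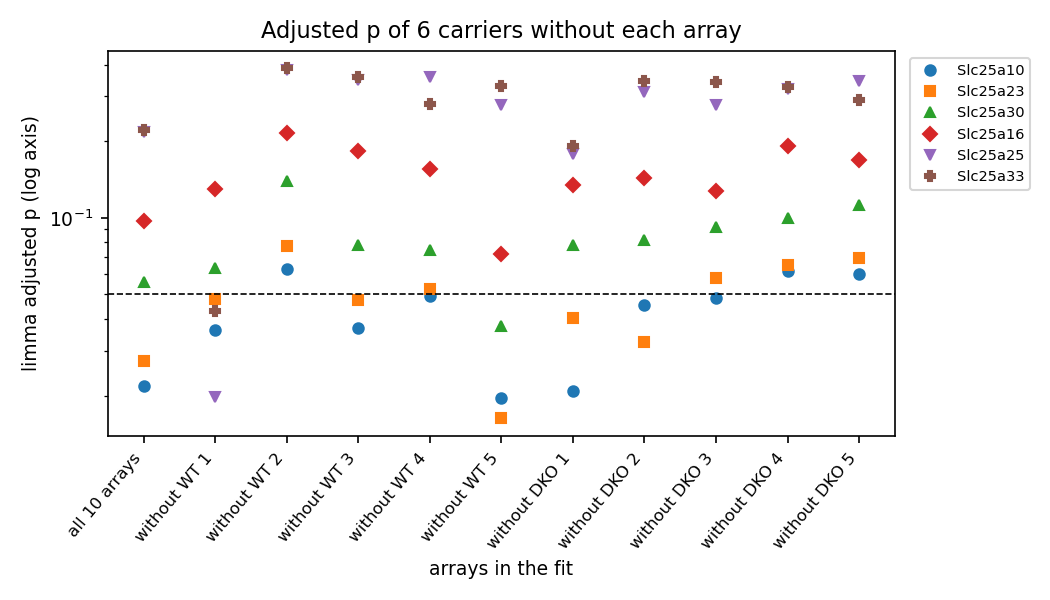
Limma adjusted p (log axis) of 6 carriers with all 10 arrays and without each array in turn; the dashed line is the threshold of 0.05. Slc25a10 and Slc25a23 lie below the line with all arrays and above it without some of them, and Slc25a25 and Slc25a33 fall below it when wild-type replicate 1 is left out.

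When the macrophage mean entered the fit as a covariate, neither Slc25a10 nor Slc25a23 was called. The differences were -0.33 (SE 0.079, limma adjusted p = 0.154) for Slc25a10 and -0.44 (SE 0.085, limma adjusted p = 0.0955) for Slc25a23. With the erythroid mean they were -0.32 (SE 0.084, limma adjusted p = 0.162) and -0.31 (SE 0.10, limma adjusted p = 0.257). Both marker means were themselves higher in double knockout arrays, so these fits cannot separate them from the group. The erythroid mean also moved Slc25a25 to -1.12 (SE 0.25, limma adjusted p = 0.0962) and Slc25a33 to 0.55 (SE 0.12, limma adjusted p = 0.094), and neither was called. With the pancreatic acinar mean, which varied within each group, Slc25a10 and Slc25a23 stayed called, at -0.31 (adjusted p = 0.0306 in limma) and -0.34 (adjusted p = 0.0393 in limma). Without the 4 arrays of highest pancreatic mean the differences were -0.36 and -0.41, with limma adjusted p = 0.0951 and 0.0535. That fit kept only wild-type replicates 1 to 3 and double knockout replicates 3 to 5, and its calls over all probe sets fell from 224 to 68.

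Genes that work with the carriers were counted from lists of 65 genes, 57 of them measured by an unshared probe set. In limma 0 were called, with 5 at an unadjusted p under 0.05, and 38 had lower means (median log2 difference -0.04). The groups did not overlap for 2 higher and 1 lower partner genes. Over all probe sets 0.884% were called and 15.1% had an unadjusted p under 0.05. Means were lower for 51.5% of them, and the groups did not overlap for 3.90%. Among 7 measured genes of citrate and pyruvate use, Acly, which splits exported citrate, had 9.57 ± 0.10 and 9.33 ± 0.06 (SD, n = 5 each). Its groups did not overlap, and its difference of -0.24 (SE 0.054) just missed the threshold (limma adjusted p = 0.0594). Mtch1, a carrier relative of the outer membrane under another symbol, had -0.18 (SE 0.056, limma adjusted p = 0.165).

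In the import machinery of 11 measured genes, Timm22, the channel that inserts carriers into the inner membrane, had 0.13 (SE 0.037, limma adjusted p = 0.119) with groups that did not overlap. The 6 carnitine enzymes and transporters lay between -0.053 and 0.05, with Slc22a5, the plasma membrane carnitine transporter, at the lower end. Of 6 shuttle enzymes Gpd1 had the lowest p, with -0.12 (limma adjusted p = 0.402), and of 6 urea cycle genes Nags had -0.087 (limma adjusted p = 0.545). The pyruvate carrier subunit Mpc1 had -0.0045, the porin Vdac2 -0.081, Micu2 of the calcium uniporter 0.08, and the mitochondrial RNA polymerase Polrmt 0.13 with groups that did not overlap (limma adjusted p = 0.191).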

How the data were processed

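Liver RNA was measured on 10 one-colour arrays with biotin label, 5 of wild-type and 5 of double knockout liver. The authors' deposited values were log2 expression levels per probe set, for which the submitters' processing notes name Affymetrix Expression Console. No source used here gives its version, algorithm or normalization. Lower quartiles were 5.22 to 5.25, medians 6.43 to 6.46 and upper quartiles 8.06 to 8.10 over the arrays, so no further normalization was applied. Scanner files, detection calls and dates were not analysed here, so batches could not be examined. The number of arrays limits the precision.

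Of 41345 rows, the 25335 with at least 1 annotated symbol were tested with no filter (limma 3.58.1, R 4.3.3, lmFit and eBayes, two-sided, 8 residual and 3.96 prior degrees of freedom). The fit was tested on simulated data. All 46 carriers matched a RefSeq gene identifier. The rule named carriers that were called or did not overlap, the 2 of lowest p per substrate group, and a list of carriers with a role in fasted liver, 28 in all. Slc25a33 and Slc25a41 were added after their values were seen. The members and lists were chosen with earlier results of these data known, and lists were described by counts and medians without a test. Intervals cover the spread between arrays.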

Additional observations from a re-analysis of the deposited data

Results flagged for a closer look

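In 7 of 92 sets of 5 arrays (46 carriers in each group), 1 array stood farther from its nearest neighbour than Dixon's 95% limit allows, and chance flags about 1 set in 20. The widest gap in log2 units was that of Slc25a25, where wild-type replicate 1, at 9.76, was the lowest and the next array was at 10.68. As a share of the range of the 5 arrays, the gap was 0.80 for Slc25a25 and largest for Slc25a17, at 0.93. For Slc25a38, wild-type replicate 5 was the lowest at 8.94, with the next at 9.06. In the double knockout group, replicate 2 was the lowest for Slc25a5 at 13.00 (next 13.06) and for Slc25a17 at 10.11 (next 10.19). Replicate 4 was the highest for Slc25a24 at 7.21 (next 6.98) and the lowest for Slc25a47 at 13.33 (next 13.45). Replicate 1 was the highest for Slc25a27 at 7.39 (next 7.27).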

How the results depend on the processing

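Against 2 carriers called, there were 4 with an intensity trend in eBayes, 4 at a threshold of 0.1, 0 with every row of the table tested, 0 with the macrophage or the erythroid mean as covariate, and 0 to 4 without single arrays. There were 0 without the 4 arrays of highest pancreatic mean and 4 without replicate 1 of both groups, both chosen after seeing the data. Over all probe sets the count of 224 became 368 with only rows above the median level, 75 with every row tested, 23 with the macrophage mean, 0 with the erythroid mean (limma; 3829 at an unadjusted p under 0.05 without a covariate), 585 at the threshold of 0.1, 64 to 253 without single arrays, 68 without the 4 arrays of highest pancreatic mean and 613 without replicate 1 of both groups.

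By substrate group, the relatives of the uncoupling proteins went from 0 to 1 called (Slc25a30) with the trend, the robust option, array weights, the level filter, rows with 1 symbol, the replicate block and the threshold of 0.1, and were at 0 to 1 without single arrays. The nucleotide group went from 0 to 1 with the trend and at 0.1 (Slc25a16) and without replicate 1 of both groups (Slc25a33), and was at 0 to 1 without single arrays. The ATP-Mg group went from 1 to 0 with every row tested, with the macrophage or erythroid mean and without the arrays of highest pancreatic mean, to 2 without replicate 1 of both groups, and to 0 to 2 without single arrays. The dicarboxylate group went from 1 to 0 in the same cases except the loss of replicate 1, and to 0 to 1 without single arrays. Partner genes went from 0 to 1 called (Acly) with the trend, quantile normalization applied again, the level filter and the threshold of 0.1, and were at 0 to 1 without single arrays. The causes were not tested.

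With the replicate number as a block, Slc25a10 had a limma adjusted p = 0.0707, Slc25a23 0.0368 and Slc25a30 0.039, so the dicarboxylate group had 0 called and 76 probe sets were called in all. Nothing in the labels says whether the numbers pair the arrays. After subtraction of the group means, correlations of same-numbered arrays were -0.477, -0.31, 0.131, -0.095 and -0.133, and 0 of 5 wild-type arrays correlated best with their own number. These correlations cannot decide whether arrays were paired, since other signals, such as the pancreatic one, also enter them.

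The sign changed for 8 named carriers that were not called. With the macrophage mean they were 0.0063 for Slc25a5, 0.0041 for Slc25a15, 0.066 for Slc25a20 and 0.067 for Slc25a22, and with the erythroid mean -0.017 for Slc25a3 and -0.043 for Slc25a4. Without the arrays of highest pancreatic mean they were -0.019 for Slc25a3, 0.0018 for Slc25a5 and 0.033 for Slc25a41, and without replicate 1 of both groups -0.0005 for Slc25a3. Without single arrays Slc25a3 ranged from -0.0059 to 0.011, Slc25a5 from -0.028 to 0.003, Slc25a12 from -0.081 to 0.018 and Slc25a22 from -0.13 to 0.027. The other 22 of 30 carriers examined kept their sign in all fits that gave a value. Each carrier had 1 row, so averaging rows changes nothing.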
